A study of Schizosaccharomyces pombe with 10 samples.

Results

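The levels of 10 genes of iron and haem handling in fission yeast, of 6661 features in the table, were followed through untreated cells and 4 treatments that damage DNA or stall its copying. They were taken by identifier: the reductive uptake genes fio1 (SPAC1F7.08), fip1 (SPAC1F7.07c) and frp1 (SPBC1683.09c), the siderophore genes sib1 (SPAC23G3.02c) and str1 (SPBC4F6.09), the haem genes str3 (SPAC1F8.03c) and shu1 (SPAC1F8.02c), the vacuolar iron transporter gene pcl1 (SPBC1683.10c), and the regulators fep1 (SPAC23E2.01) and php4 (SPBC16E9.01c). All 10 had enough counts to be tested. The gene shu1 met the minimum through its hydroxyurea, MMS and phleomycin libraries, with only 4 to 9 reads per library in the other groups. The cells were Schizosaccharomyces pombe strain PT286, whose alleles the labels do not list (the untreated libraries are titled WT), grown at 30 °C in YES, a rich yeast extract medium. After 16 h the medium was changed and an agent was present for 8 h: camptothecin (20 µM), a topoisomerase I poison, hydroxyurea (10 mM), an inhibitor of ribonucleotide reductase, methyl methanesulfonate (MMS, 0.02 %), an alkylating agent, or phleomycin (5 µg/mL), which breaks DNA strands. Each group, untreated cells included, had 2 libraries of total RNA, 10 in all, with totals of 37301356 to 48598533 counts. The labels do not say whether untreated cells also had fresh medium or 8 further hours, so these cannot be told apart from an agent in any comparison with untreated cells, whereas the 4 treated groups share them.

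Iron is needed for respiration, for haem and for iron-sulphur enzymes, and it is toxic in excess, so fission yeast takes it up by separate routes that are switched on when it is short. In the reductive route Frp1 at the cell surface reduces ferric iron, the multicopper oxidase Fio1 oxidises it again and its partner, the permease Fip1, carries it in. In the siderophore route Sib1, a peptide synthetase, builds the iron chelator ferrichrome, and Str1 brings iron-loaded siderophore into the cell. Haem from outside is bound by Shu1, which is anchored at the cell surface, and is also taken up by the transporter Str3, while Pcl1 belongs to the vacuole, where iron is stored. The repressor Fep1 binds GATA-type elements and shuts uptake genes off in ample iron. Php4 joins the CCAAT-binding Php complex when iron is short and shuts off genes that use or store iron, pcl1 and fep1 among them, and Fep1 in turn represses php4.

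The upstream sequences are shown because Fep1 and the Php complex are known to act there, and because genes with the same elements can be set beside each other in the results that follow. They come from the RefSeq genome ASM294v3. The build the authors used is not given in the sources used here, and the deposited table holds no coordinates. The motifs searched, on both strands, were AGATAA and TGATAA, the Fep1 type, and CCAAT, the Php type. Matches are in capitals, and a match on the other strand reads TTATCT or TTATCA for the Fep1 type and ATTGG for the Php type. No matches in the sequences printed here overlap. The genes fio1 and fip1 are divergent neighbours with 303 bases between their annotated starts, and 300 of these, chrI:4234772-4235071 on the plus strand, read towards fio1:
fio1 and fip1: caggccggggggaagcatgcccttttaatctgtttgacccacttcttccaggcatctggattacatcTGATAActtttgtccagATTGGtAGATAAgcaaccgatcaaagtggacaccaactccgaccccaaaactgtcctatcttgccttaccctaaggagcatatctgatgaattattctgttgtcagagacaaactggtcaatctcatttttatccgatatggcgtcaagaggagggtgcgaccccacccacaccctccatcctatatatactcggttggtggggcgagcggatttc
The 120 bases before frp1, chrII:162393-162512 on the minus strand, also hold a pair of Fep1-type matches:
frp1: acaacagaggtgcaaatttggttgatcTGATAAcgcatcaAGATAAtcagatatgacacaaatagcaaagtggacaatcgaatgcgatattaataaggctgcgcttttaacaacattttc
Upstream of str1 the pair lies farther out, at chrII:2704192-2704241 on the plus strand:
str1: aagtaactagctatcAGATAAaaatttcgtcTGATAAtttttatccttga
The 120 bases before pcl1, chrII:165306-165425 on the minus strand, and before fep1, chrI:442101-442220 on the plus strand, hold both types:
pcl1: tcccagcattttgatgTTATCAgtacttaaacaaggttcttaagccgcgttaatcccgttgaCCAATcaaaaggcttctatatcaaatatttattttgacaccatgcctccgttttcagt
fep1: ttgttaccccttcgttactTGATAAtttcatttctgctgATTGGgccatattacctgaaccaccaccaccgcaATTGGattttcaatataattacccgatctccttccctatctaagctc

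A pair of Fep1-type matches no more than 30 bases apart stood within 300 bases upstream of 3 of the 9 genes searched (fio1, fip1 and frp1), beside 3.89 % of 5112 protein-coding genes, and within 1000 bases upstream of 4, str1 being the fourth, beside 11.4 %. The genes fio1 and fip1 share theirs. At least 1 Fep1-type match lay within 300 bases of 6 of the 9 genes, against 45.6 % of all, and within 1000 bases of all 9, against 86.9 %, so a lone match says little. The CCAAT motif lay within 300 bases of 5 of the 9 (fio1, fip1, pcl1, fep1 and php4), against 41.0 % of all. A match describes the letters and is not a measured binding site.

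**Figure D1:**
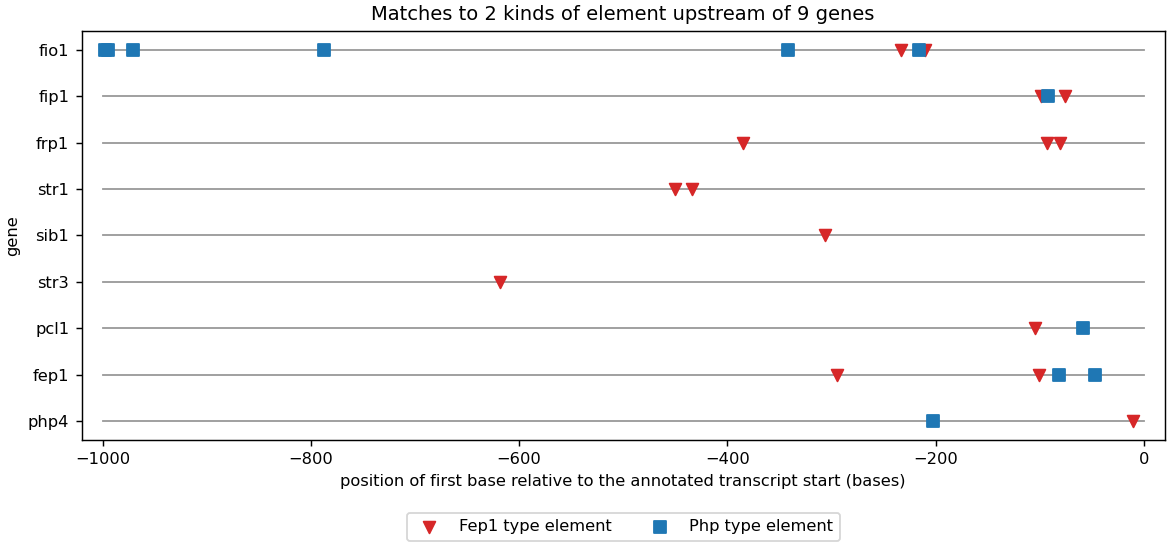
Matches to the 2 kinds of element in the 1000 bases upstream of 9 genes, with the position relative to the annotated transcript start on the horizontal axis in bases and 1 gene per line. Triangles are Fep1-type and squares Php-type matches: paired triangles stand before fio1, fip1, frp1 and str1, and squares close to the start before fip1, pcl1 and fep1.

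MMS raised 8 of the 10 genes, among them every gene of the reductive, siderophore and haem routes, and lowered pcl1 and fep1. Of all 5734 features tested, 80.4 % passed the threshold under MMS, 39.5 % rising and 40.9 % falling. Of the 10 genes, 5 rose 2-fold or more, beside 13.5 % of features, and none fell so far, beside 4.05 %. The median log2 fold change of the 10 was 1.41 against 0.0018 for all features. The 10 genes, and the lists used below, were chosen with earlier results of these data known. Differences between them and all features, here and below, are therefore a description and no independent evidence. Since shu1 was kept for testing through its levels under hydroxyurea, MMS and phleomycin, it lends these counts no support. Without it 7 of 9 rose and 2 fell, 4 rose 2-fold or more and the median was 0.97. Among 4205 protein-coding genes with 10 CPM (read counts scaled to a common library total) or more in the higher group, shu1 had the largest rise, str3 the 2nd, fip1 the 10th and fio1 the 14th. Camptothecin gave a different picture: 7 of the 10 fell, beside 35.9 % of features, 2 rose (sib1 and pcl1), beside 35.2 %, and shu1 did not pass, where 71.2 % of features did. Of the 7, 4 fell 2-fold or more, beside 1.46 % of features, and no member rose so far, beside 6.38 %. The median of the 10 was -0.68 against 0.0042 for all features, and str3 had the largest fall of 4170 protein-coding genes ranked in the same way. Under hydroxyurea 5 of the 10 rose and 4 fell, beside 40.3 % and 38.8 % of features (79.1 % in all), and 2 rose (12.4 % of features) and 1 fell (1.15 %) by 2-fold or more. Of the features called there, 50.9 % rose, or 67.7 % with library totals alone as the scaling. Under phleomycin 6 rose and 4 fell, beside 42.2 % and 40.7 % (82.9 % in all), and 3 rose (16.5 %) and 4 fell (5.51 %) by 2-fold or more. The shares that fell at all are thus near those of all features for these 2 agents, and the 4 that fell 2-fold or more under phleomycin were frp1, str1, fep1 and php4. The medians were 0.24 against 0.023 under hydroxyurea and 0.60 against 0.021 under phleomycin, or -0.017 and 0.51 without shu1. Leaving out shu1, 4 of 9 rose and 4 fell under hydroxyurea, 1 up and 1 down by 2-fold or more. Under phleomycin 5 of 9 rose and 4 fell, 2 up and 4 down by 2-fold or more. A change is called, here and throughout, at an adjusted p below 0.05 by edgeR's quasi-likelihood test, two-sided, with Benjamini-Hochberg adjustment over all features tested. Whether paired libraries stem from different cultures is not stated, so a p-value reflects the spread between the libraries at hand, which may be technical.

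**Figure D2:**
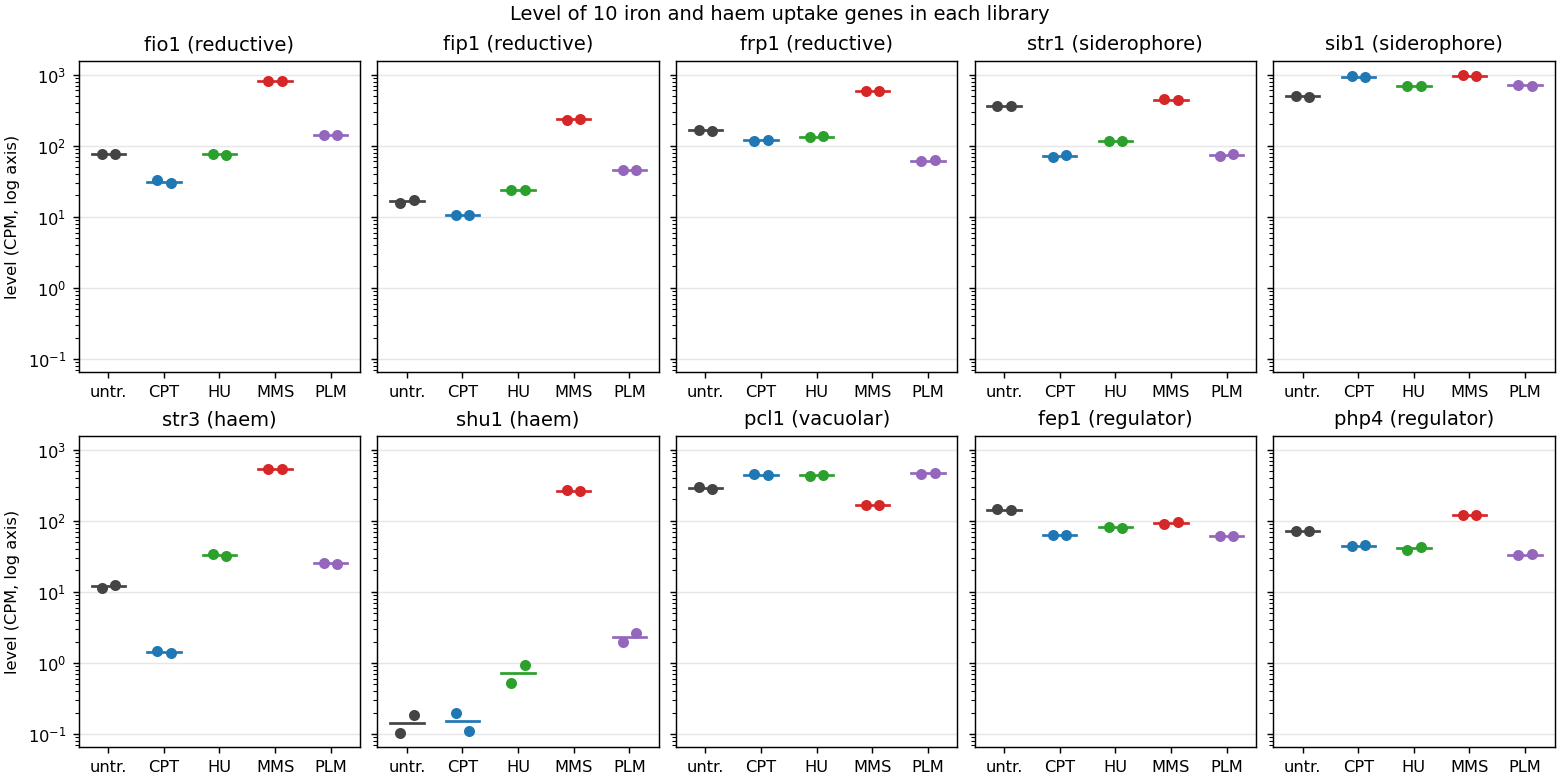
Level of each of the 10 genes in each library, in CPM on a log axis that all panels share, with untreated cells (untr.), camptothecin (CPT), hydroxyurea (HU), MMS and phleomycin (PLM) along the horizontal axis. Points are libraries, 2 per group, and bars their mean: MMS stands highest for 8 genes and lowest for pcl1, and the rise of shu1 spans from 0.104 to 270.4 CPM.

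The reductive route moved most under MMS. The ferroxidase gene fio1 stood at 76.4 and 76.4 CPM in untreated cells, 32.6 and 29.7 under camptothecin, 76.9 and 74.1 under hydroxyurea, 813 and 824 under MMS and 140.4 and 142.5 under phleomycin. Its level was thus lowest under camptothecin and highest under MMS, and only hydroxyurea overlapped untreated cells. MMS raised fio1 10.7-fold (log2 fold change 3.42 ± 0.029 SE, adjusted p = 2.07e-69) and phleomycin 1.85-fold (0.89 ± 0.031, adjusted p = 2.16e-35). Camptothecin lowered it by 2.45 times (-1.29 ± 0.039, adjusted p = 1.82e-38). With hydroxyurea the log2 fold change was -0.017 ± 0.033 (adjusted p = 0.653), and with library totals alone as the scaling it was 0.17 (adjusted p = 7.99e-06).

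The permease gene fip1, which shares its upstream region with fio1, was likewise lowest under camptothecin and highest under MMS, at lower levels. It had 15.7 and 17.3 CPM in untreated cells, 10.6 and 10.4 under camptothecin, 23.6 and 23.9 under hydroxyurea, 229.5 and 238 under MMS and 44.8 and 45.1 under phleomycin. No group overlapped another, and all 4 comparisons with untreated cells passed. The rise was 14.2-fold under MMS (log2 fold change 3.82 ± 0.052, adjusted p = 1.03e-57), 2.72-fold under phleomycin and 1.44-fold under hydroxyurea (0.52 ± 0.062, adjusted p = 3.31e-11), and camptothecin lowered fip1 by 1.57 times (-0.65 ± 0.072, adjusted p = 3.40e-12). Per kilobase of coding length, fio1 had 3.10 and 2.82 reads for each of fip1 in untreated cells. That ratio lay between 1.82 and 2.26 in the 8 treated libraries, below both untreated ones.

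The reductase gene frp1 parted from the other 2 genes of its route under phleomycin. Its levels were 166 and 163.5 CPM in untreated cells, 118 and 120.3 under camptothecin, 131 and 135.5 under hydroxyurea, 592 and 589 under MMS and 61.7 and 62.0 under phleomycin. No group overlapped another, and MMS alone stood above untreated cells. It rose 3.59-fold under MMS (log2 fold change 1.84 ± 0.026, adjusted p = 5.76e-57). It fell with the other 3 agents, by 2.66 times under phleomycin (-1.41 ± 0.031, adjusted p = 1.74e-46), 1.38 times under camptothecin (-0.47 ± 0.029, adjusted p = 8.15e-23) and 1.24 times under hydroxyurea (-0.31 ± 0.028, adjusted p = 3.35e-15). All 5 groups differed in the order phleomycin, camptothecin, hydroxyurea, untreated, MMS, with every neighbouring pair past the threshold. The other ferric reductase gene, frp2, was low in untreated cells (4.40 CPM) and rose with every agent, to 73.0 CPM under MMS (log2 fold change 4.05 ± 0.091, adjusted p = 8.96e-46), 20.7 under phleomycin and 15.1 under hydroxyurea. With frp2 included, the reductive list of 4 genes had 4 up under MMS, 3 up and 1 down under phleomycin, 2 up and 1 down under hydroxyurea, and 1 up and 3 down under camptothecin. Its median log2 fold change was 3.62, 1.16, 0.25 and -0.56 in that order. Beside these and the list counts that follow, of all features 35.2 to 42.2 % rose and 35.9 to 40.9 % fell, by agent, and medians of all features were 0.0018 to 0.023.

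In the siderophore route the synthetase gene sib1 and the transporter gene str1 went apart with every agent but MMS, under which both rose. The ferrichrome synthetase gene sib1 stood at 503 and 491 CPM in untreated cells, 950.4 and 929.9 under camptothecin, 697.8 and 697.5 under hydroxyurea, 982 and 963 under MMS and 708 and 703 under phleomycin. All treated libraries thus lay above the untreated ones. It is the only gene of the 10 that rose with all 4 agents, by 1.96-fold under MMS (log2 fold change 0.97 ± 0.018, adjusted p = 6.81e-50), 1.89-fold under camptothecin (0.92 ± 0.018, adjusted p = 3.67e-48), 1.42-fold under phleomycin and 1.40-fold under hydroxyurea. The levels under hydroxyurea and phleomycin did not differ past the threshold (adjusted p = 0.431), but did so, lower under phleomycin, with library totals alone (1.96e-05) and quantile normalization (0.000165). MMS stood above camptothecin by 0.048 ± 0.018 on the log2 scale (adjusted p = 0.0118), a difference lost with a replicate block (adjusted p = 0.128) or without the second camptothecin library (0.179) or the first MMS library (0.146).

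The siderophore transporter gene str1 showed the opposite balance, high in untreated cells and under MMS and low with the other agents. It had 356 and 358 CPM in untreated cells, 68.8 and 73.5 under camptothecin, 115 and 116.5 under hydroxyurea, 449.5 and 442 under MMS and 72.1 and 75.3 under phleomycin. Camptothecin lowered it 5.02 times (log2 fold change -2.33 ± 0.030, adjusted p = 1.22e-58), phleomycin 4.84 times (-2.28 ± 0.030, adjusted p = 1.06e-58) and hydroxyurea 3.09 times (-1.63 ± 0.028, adjusted p = 1.83e-51). The rise under MMS was 1.25-fold (0.32 ± 0.026, adjusted p = 1.13e-17), the smallest of the 8 rises under that agent. Camptothecin and phleomycin overlapped and did not differ past the threshold (adjusted p = 0.141), but did so without the second camptothecin library (0.0227), with library totals alone (9.03e-05) and with quantile normalization (0.00133). Of the 5 siderophore genes listed, sib2, the ornithine hydroxylase gene next to sib1, rose under MMS (79.2 to 169 CPM, a log2 change of 1.09 ± 0.037, adjusted p = 8.31e-36) and camptothecin (to 153 CPM, 0.95 ± 0.037, adjusted p = 2.82e-32). Unlike str1, str2 rose with every agent, by 0.67 ± 0.051 under MMS (adjusted p = 1.39e-18). Its other rises were small: 0.17 under camptothecin, 0.16 under hydroxyurea and 0.11 under phleomycin (adjusted p = 0.0478 for the last). The gene that fell under MMS was sib3 (-0.32 ± 0.028, adjusted p = 9.35e-16). In that list 4 rose and 1 fell under MMS, 4 rose and 1 fell under camptothecin, 2 rose and 1 fell under hydroxyurea, and 2 rose and 2 fell under phleomycin, with medians of 0.67, 0.66, 0.033 and -0.017 on the log2 scale. Shares of all features by agent were 35.2 to 42.2 % up and 35.9 to 40.9 % down, and with library totals alone 4 of the list rose and 1 fell under hydroxyurea.

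The haem genes had the largest differences of the 10 between MMS and untreated cells. The cell surface haem receptor gene shu1 had 4 and 8 reads in untreated cells, 9 and 4 under camptothecin, 22 and 40 under hydroxyurea, 78 and 117 under phleomycin and 10250 and 10961 under MMS. In CPM these are 0.104 and 0.186, 0.195 and 0.111, 0.514 and 0.931, 1.94 and 2.63, and 270.4 and 262. The gene was thus near 0 in untreated and camptothecin cells, which overlapped, while under MMS it was the second highest of the 10 per kilobase of coding length. Pooled over the 2 libraries, 21211 reads under MMS against 12 in untreated cells gave a ratio of 1808, with an exact 95 % interval for counting error alone of 1035 to 3500. The same ratio was 15.7 (8.76 to 30.8) under phleomycin, 4.91 (2.62 to 10.0) under hydroxyurea and 1.08 (0.453 to 2.58) under camptothecin. The fitted log2 fold changes were 10.8 under MMS, 3.94 under phleomycin, 2.27 under hydroxyurea and 0.10 under camptothecin. They are given without a test, as a description, since the gene was kept for testing through its levels under hydroxyurea, MMS and phleomycin. Over all alternative settings they ranged from 9.58 to 11.3 under MMS, 2.27 to 4.43 under phleomycin, 0.85 to 2.77 under hydroxyurea and -0.39 to 0.60 under camptothecin. The lowest value was that of quantile normalization for the first 3. That setting adds a prior count of 2 before logs are taken, which pulls ratios of low counts towards 0. The counting intervals above leave out the spread between libraries, so they are too narrow as a measure of error.

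The haem transporter gene str3 is adjacent to shu1 among protein-coding genes, on the same strand with 1922 bases between them. Of the 9 genes other than shu1, str3 had the widest span across groups. Its levels were 11.4 and 12.5 CPM in untreated cells, 1.48 and 1.36 under camptothecin, 33.8 and 32.0 under hydroxyurea, 537 and 535 under MMS and 25.5 and 25.0 under phleomycin. No group overlapped another. MMS raised it 45.0-fold (log2 fold change 5.49 ± 0.045, adjusted p = 5.50e-70), hydroxyurea 2.76-fold (1.46 ± 0.057, adjusted p = 1.63e-32) and phleomycin 2.12-fold (1.08 ± 0.060, adjusted p = 3.78e-25), while camptothecin lowered it 8.39 times (-3.06 ± 0.11, adjusted p = 4.86e-34). Between MMS and camptothecin the level of str3 differed 378-fold (log2 difference 8.55 ± 0.062, adjusted p = 6.19e-73). The camptothecin level rests on 68 and 49 reads. Pooled, its ratio to untreated cells was 0.119, with an exact 95 % interval for counting error alone of 0.0977 to 0.145. Per kilobase of coding length there were 0.0310 and 0.0339 str3 reads for each of the siderophore transporter gene str1 in untreated cells, 0.0208 and 0.0180 under camptothecin, 0.286 and 0.267 under hydroxyurea, 1.16 and 1.18 under MMS and 0.344 and 0.323 under phleomycin. The third haem gene listed, abc3, whose product moves haem out of the vacuole, rose under MMS (96.8 to 178 CPM, a log2 change of 0.88 ± 0.037, adjusted p = 4.20e-31) and fell with the other 3 agents, most under camptothecin (to 60.3 CPM, -0.68 ± 0.040, adjusted p = 1.69e-23). All 3 haem genes rose under MMS, 2 rose and abc3 fell under hydroxyurea and under phleomycin, and none rose and 2 fell under camptothecin, and of all features 35.2 to 42.2 % rose and 35.9 to 40.9 % fell, by agent. With library totals alone, and with quantile normalization, abc3 did not pass under hydroxyurea.

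**Figure D3:**
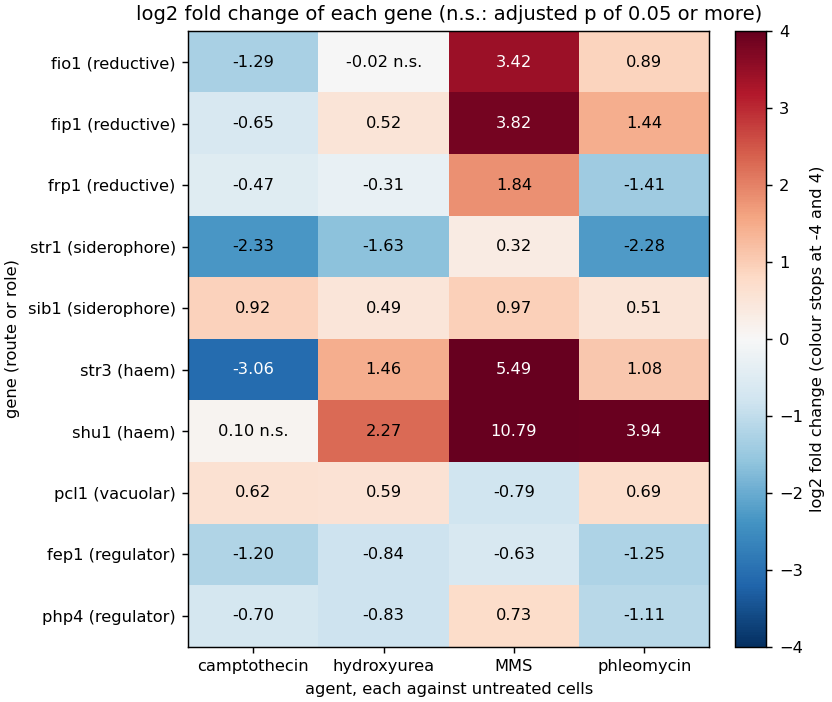
The log2 fold change of each of the 10 genes (rows, with route or role) under each agent against untreated cells (columns), red for higher and blue for lower, with colour stopping at -4 and 4 and n.s. marking an adjusted p of 0.05 or more. The MMS column is positive for every uptake gene, from 0.32 for str1 to 10.8 for shu1, and negative for pcl1 (-0.79) and fep1 (-0.63).

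The vacuolar transporter gene pcl1 went against the uptake genes under MMS. It stood at 297 and 284 CPM in untreated cells, 449.5 and 443 under camptothecin, 430.0 and 440.6 under hydroxyurea, 169 and 167 under MMS and 463 and 472 under phleomycin. MMS lay below untreated cells and the other agents above them, with no overlap. It fell by 1.73 times under MMS (log2 fold change -0.79 ± 0.024, adjusted p = 3.40e-38) and rose with the other 3, 1.54-fold under camptothecin (0.62 ± 0.022, adjusted p = 3.36e-34), 1.5-fold under hydroxyurea (0.59 ± 0.022, adjusted p = 6.61e-33) and 1.61-fold under phleomycin (0.69 ± 0.022, adjusted p = 5.03e-37). Its neighbour on the same strand is frp1, which changed in the opposite direction with every agent. Per kilobase of coding length frp1 had 0.240 and 0.248 reads for each of pcl1 in untreated cells, 0.113 and 0.117 under camptothecin, 0.131 and 0.132 under hydroxyurea, 1.51 and 1.52 under MMS and 0.0574 and 0.0565 under phleomycin.

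Of the 2 regulators, the repressor gene fep1 fell with every agent. Its levels were 146.5 and 142 CPM in untreated cells, 62.6 and 62.8 under camptothecin, 81.8 and 79.7 under hydroxyurea, 90.6 and 95.7 under MMS and 61.2 and 60.3 under phleomycin. No treated group overlapped the untreated one. The fall was 2.30 times under camptothecin (log2 fold change -1.20 ± 0.040, adjusted p = 8.14e-36), 2.37 times under phleomycin (-1.25 ± 0.040, adjusted p = 4.31e-37), 1.79 times under hydroxyurea (-0.84 ± 0.039, adjusted p = 2.38e-28) and 1.55 times under MMS (-0.63 ± 0.039, adjusted p = 1.23e-22). Of the treated groups MMS thus had the highest fep1 level, above hydroxyurea by 0.21 ± 0.040 on the log2 scale (adjusted p = 7.47e-06), and camptothecin and phleomycin did not differ past the threshold (adjusted p = 0.321).

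The gene of the other regulator, php4, rose under MMS and fell with the other agents. It had 72.4 and 72.8 CPM in untreated cells, 44.5 and 44.9 under camptothecin, 39.1 and 42.6 under hydroxyurea, 121 and 120.2 under MMS and 33.3 and 33.7 under phleomycin. No group overlapped another. MMS raised it 1.66-fold (log2 fold change 0.73 ± 0.045, adjusted p = 9.72e-23), and phleomycin lowered it 2.17 times (-1.11 ± 0.050, adjusted p = 1.27e-29), hydroxyurea 1.78 times (-0.83 ± 0.049, adjusted p = 1.56e-23) and camptothecin 1.62 times (-0.70 ± 0.049, adjusted p = 4.28e-20). Per kilobase of coding length there were 0.944 and 0.981 php4 reads for each of fep1 in untreated cells, 1.36 and 1.37 under camptothecin, 0.912 and 1.02 under hydroxyurea, 2.55 and 2.40 under MMS and 1.04 and 1.07 under phleomycin. An annotated non-coding RNA on the opposite strand covers 79.6 % of php4, and such RNAs cover 65.3 % of pcl1 and 12.6 to 49.5 % of fio1, str1, sib1, str3, shu1 and fep1. Whether reads were counted by strand is not stated, so reads of these genes and of such RNAs cannot be told apart. Of these RNAs, 1 has its own row in the table, SPNCRNA.100 at pcl1, with at most 2 reads in a library.

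**Figure D4:**
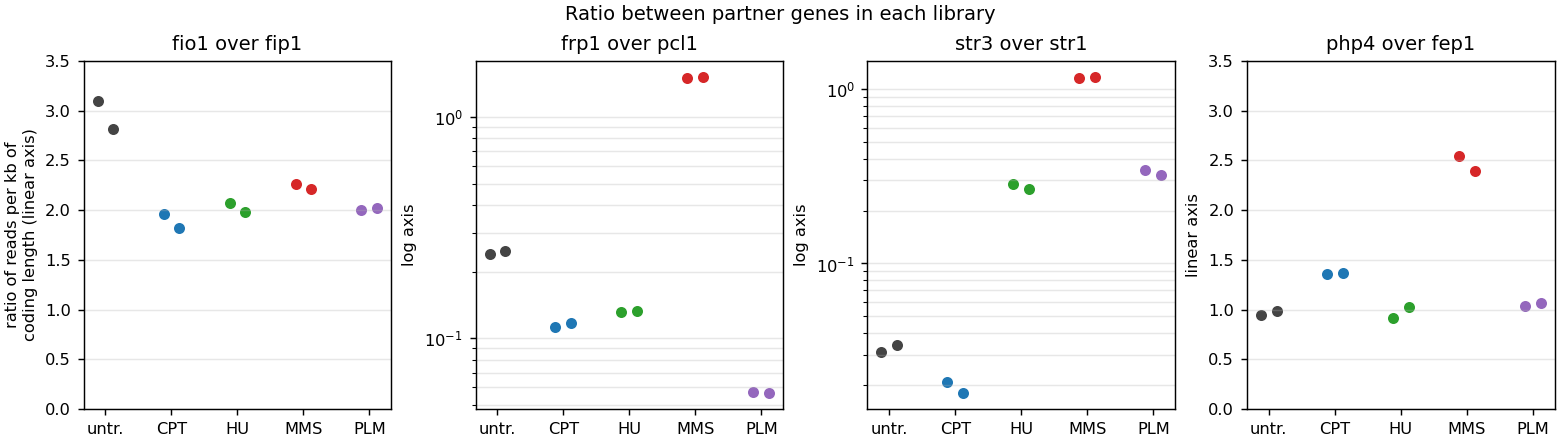
Ratio of reads per kilobase of coding length between partner genes in each library, by group (untreated, camptothecin, hydroxyurea, MMS, phleomycin), on linear axes from 0 for fio1 over fip1 and php4 over fep1 and on log axes for frp1 over pcl1 and str3 over str1. The MMS libraries stand highest in the last 3, at 1.51 and 1.52, 1.16 and 1.18, and 2.55 and 2.40, while fio1 over fip1 is highest in untreated cells.

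The regulators of the pathway were also counted as a list. It has 9 genes and holds, beside fep1 and php4, the Php subunit genes php2, php3 and php5, the iron-sensing partner genes grx4 and fra2, and the co-repressor genes tup11 and tup12. None rose and 6 fell under camptothecin, none rose and 7 fell under hydroxyurea, none rose and 8 fell under phleomycin, and 3 rose and 4 fell under MMS. Beside these, 35.2, 40.3, 42.2 and 39.5 % of all features rose and 35.9, 38.8, 40.7 and 40.9 % fell, in the same order. Among the falls under hydroxyurea were those of the co-repressor gene tup12 and the Php gene php2, close in size to those of fep1 and php4, tup12 from 217 to 121 CPM (a log2 change of -0.84 ± 0.030, adjusted p = 1.39e-34) and php2 from 44.9 to 25.0 (-0.85 ± 0.063, adjusted p = 5.87e-19). The median of the list was -0.20 under camptothecin, -0.70 under hydroxyurea, -0.13 under MMS and -0.42 under phleomycin, on the log2 scale, beside 0.0042, 0.023, 0.0018 and 0.021 for all features.

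Set against each other per kilobase of coding length, the 10 genes spanned the narrowest range under MMS. In untreated cells the level ran from 398 CPM per kilobase for pcl1 through 194 for str1, 97.1 for frp1, 40.9 for fio1 and 33.6 for sib1 to 6.29 for str3 and 0.213 for shu1, a span of 1870-fold. With MMS it ran from 438 for fio1 through 391 for shu1, 348 for frp1, 283 for str3 and 242 for str1 to 65.8 for sib1 and 55.0 for fep1, a span of 7.97-fold. The gene pcl1 stood highest in every group but MMS and shu1 lowest in every group but MMS. The span was 2719-fold under camptothecin, 563-fold under hydroxyurea and 191-fold under phleomycin, and in these groups shu1 sets it. Without shu1 it was 63.2-fold in untreated cells, 816-fold under camptothecin, 34.4-fold under hydroxyurea, 7.97-fold under MMS and 48.0-fold under phleomycin. These values are a description across genes with no test, and the order and spans depend on the length used. Per kilobase of whole transcript, shu1 (373) and not fio1 (292) stood highest under MMS, and fep1 (26.6) lowest. The annotation marks the start of the shu1 transcript as open, so its length may be too short and its level per kilobase of transcript too high.

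Between agents, MMS stood apart from each of the other 3 in the same genes. Against camptothecin 9 of the 10 were higher under MMS and pcl1 was lower, beside 38.2 % and 38.7 % of all features. Against hydroxyurea the split was again 9 and 1, beside 34.2 % and 39.4 %, and against phleomycin 9 were higher under MMS and pcl1 was lower, beside 35.8 % and 36.2 %. The shares past the threshold in either direction were 76.9 %, 73.6 % and 72.0 % of features. Of the 9, 7 were 2-fold or more higher under MMS than under camptothecin (8.60 % of features), hydroxyurea (3.66 %) and phleomycin (2.15 %), and pcl1 was 2-fold or more lower in each (4.85 %, 4.27 % and 4.71 %). Without shu1 8 of 9 were higher under MMS in each of the 3, and 6 by 2-fold or more. These 3 comparisons share the MMS libraries. The gene frp1 was higher under MMS than under phleomycin by 9.55-fold (log2 difference, phleomycin less MMS, -3.26 ± 0.029, adjusted p = 3.60e-67), shu1 by 116.5-fold and fio1 by 5.79-fold. Hydroxyurea and camptothecin differed in 9 of the 10 (72.6 % of features), 7 higher under hydroxyurea (36.5 %) and 2 lower (36.2 %), of which 4 were 2-fold or more higher (7.34 %) and none lower by so much (2.28 %). The largest of these differences was that of str3, 23.2-fold (log2 difference 4.52 ± 0.089, adjusted p = 2.35e-48). Between phleomycin and camptothecin 8 differed (80.0 % of features), with 5 higher (39.4 %) and 3 lower (40.7 %) under phleomycin, and fio1, fip1, str3 and shu1 were 2-fold or more higher (11.1 %), with none lower by so much (3.94 %). Between phleomycin and hydroxyurea 9 differed (71.2 % of features), with 4 higher (33.3 %) and 5 lower (37.8 %) under phleomycin, shu1 being 2-fold or more higher (4.17 %) and frp1 lower (1.99 %). In these comparisons too shu1 lends the counts no support. Leaving it out, 6 were higher and 2 lower under hydroxyurea than under camptothecin, 3 higher by 2-fold or more. Under phleomycin 4 were higher and 3 lower than under camptothecin, 3 higher by 2-fold or more. Against hydroxyurea 3 were higher and 5 lower under phleomycin, none higher and 1 lower by 2-fold or more. A few calls between agents rest on small differences. The call of php4, lower under hydroxyurea than under camptothecin by a log2 difference of -0.13 ± 0.051 (adjusted p = 0.0201), was lost without the first camptothecin (0.0509), second camptothecin (0.0685) or first hydroxyurea library (0.318). That of pcl1, higher under phleomycin than under camptothecin by 0.067 ± 0.022 (adjusted p = 0.00460), was lost without the second camptothecin (0.0525) or second phleomycin library (0.112). That of pcl1 against hydroxyurea, 0.10 ± 0.022 (adjusted p = 3.27e-05), was lost with library totals alone (0.924) and with quantile normalization (0.129). Whether pcl1 differed between hydroxyurea and camptothecin turned on the scaling: it was lower under hydroxyurea with DESeq2 size factors (adjusted p = 0.0259) and without the filter (0.00597), and higher with library totals (1.00e-09) and quantile normalization (3.16e-05).

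**Figure D5:**
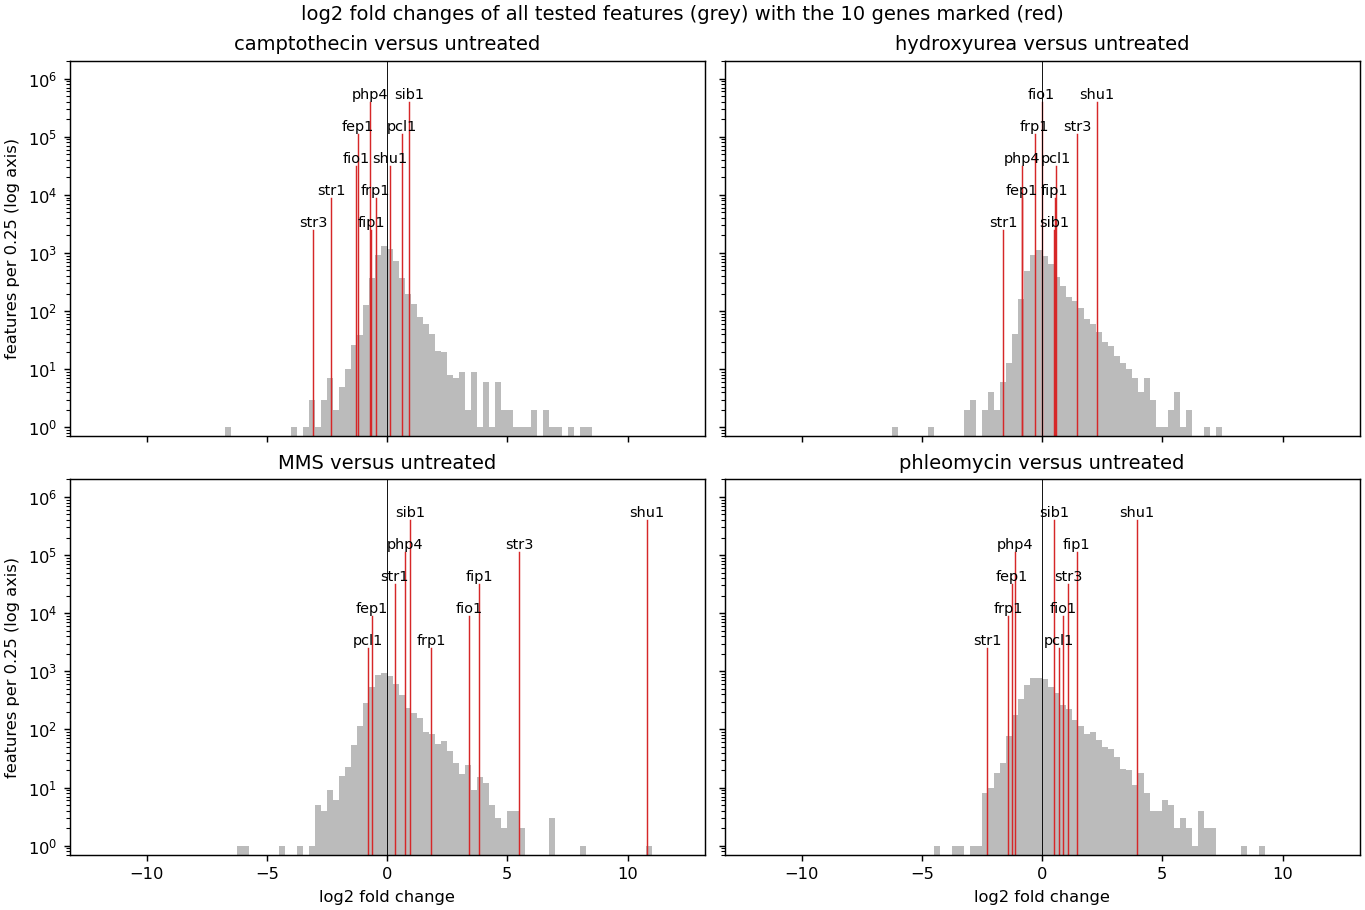
Number of tested features (grey, per 0.25 log2 units, on a log axis) by log2 fold change against untreated cells for each agent, with the 10 genes as labelled red lines whose heights only separate the names. Under MMS shu1 stands at 10.8 and str3 at 5.49, and under camptothecin str3 (-3.06) and str1 (-2.33) lie in the left tail.

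Genes that build iron-sulphur clusters were listed by function. Of 17 tested, 7 rose and 5 fell under camptothecin, 8 and 8 under hydroxyurea, 9 and 7 under MMS, and 9 and 5 under phleomycin. Beside these, 35.2 to 42.2 % of all features rose and 35.9 to 40.9 % fell, by agent. With library totals alone 9 rose and 4 fell under hydroxyurea. The scaffold gene isu1 (32.4 to 84.3 CPM, a log2 change of 1.38 ± 0.057, adjusted p = 1.68e-31) and the cytosolic assembly gene dre2 (24.6 to 54.5, 1.15 ± 0.075, adjusted p = 1.19e-21) rose under MMS, and dre2 rose under hydroxyurea (0.60 ± 0.077, adjusted p = 2.38e-10). The cytosolic scaffold gene nbp35 fell under MMS about as far as dre2 rose (57.6 to 26.1 CPM, -1.14 ± 0.067, adjusted p = 1.04e-23). It fell with the other agents too, under phleomycin to 23.5 CPM (-1.29 ± 0.068, adjusted p = 2.30e-26), hydroxyurea to 38.7 (-0.57 ± 0.064, adjusted p = 3.55e-12) and camptothecin to 38.4 (-0.58 ± 0.064, adjusted p = 3.10e-12). The gene isd11, for a partner of the cysteine desulphurase, fell with every agent, most under camptothecin (72.4 to 38.7 CPM, -0.90 ± 0.052, adjusted p = 8.65e-24) and phleomycin (to 40.4 CPM, -0.84 ± 0.052, adjusted p = 8.65e-23). The assembly gene arh1 rose under camptothecin (20.9 to 36.8 CPM, 0.82 ± 0.081, adjusted p = 5.57e-14).

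Of 20 iron-using enzyme genes tested, 8 rose and 9 fell under camptothecin, 10 and 10 under hydroxyurea, 6 and 13 under MMS, and 7 and 11 under phleomycin, where 39.5 and 42.2 % of all features rose and 40.9 and 40.7 % fell under the last 2. With library totals alone 12 rose and 6 fell under hydroxyurea. The homoaconitase gene lys4, for an iron-sulphur enzyme of lysine synthesis, fell with every agent, most under camptothecin (1832 to 818 CPM, -1.16 ± 0.017, adjusted p = 9.55e-56). It fell to 907 CPM under phleomycin (-1.015 ± 0.017, adjusted p = 3.87e-53) and to 1197 CPM under hydroxyurea (-0.61 ± 0.017, adjusted p = 4.92e-41). The sulphite reductase gene sir1 also fell with every agent, most under MMS (907 to 514 CPM, -0.82 ± 0.019, adjusted p = 4.66e-45) and under phleomycin (to 364 CPM, -1.32 ± 0.019, adjusted p = 5.91e-56). The fatty acid desaturase gene ole1 and erg5, a gene of ergosterol synthesis, fell with every agent as well. Under camptothecin ole1 went from 441 to 251 CPM (-0.81 ± 0.025, adjusted p = 2.33e-38) and under phleomycin to 229.5 CPM (-0.94 ± 0.025, adjusted p = 3.56e-42). The fall of erg5 was largest under hydroxyurea (1045 to 638 CPM, -0.71 ± 0.018, adjusted p = 5.19e-43). The catalase gene ctt1, for a haem enzyme, rose under MMS (603 to 1083 CPM, 0.85 ± 0.019, adjusted p = 8.64e-46). The gene suc22, for the small subunit of ribonucleotide reductase, rose with every agent, most under phleomycin (717 to 1799 CPM, 1.33 ± 0.017, adjusted p = 2.24e-59). Medians of the iron-sulphur and iron-using lists lay between -0.23 and 0.13 on the log2 scale under every agent, beside 0.0018 to 0.023 for all features.

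Of 7 haem synthesis genes tested, 2 rose and 3 fell under camptothecin, 1 and 5 under hydroxyurea, 1 and 5 under MMS, and 2 and 3 under phleomycin, and the median was -0.34 under MMS on the log2 scale. Of all features 35.2 to 42.2 % rose and 35.9 to 40.9 % fell, by agent, and with library totals alone the count under hydroxyurea turned to 3 up and 2 down. The gene that rose under MMS was hem1, for the first enzyme of the pathway, 5-aminolevulinate synthase (168 to 544 CPM, a log2 change of 1.69 ± 0.025, adjusted p = 1.71e-55). The coproporphyrinogen oxidase gene hem13 fell with every agent, under MMS from 349 to 198 CPM (-0.81 ± 0.026, adjusted p = 6.30e-37), under phleomycin to 161 (-1.11 ± 0.027, adjusted p = 3.88e-44), under hydroxyurea to 185 (-0.91 ± 0.026, adjusted p = 2.28e-39) and under camptothecin to 229 (-0.60 ± 0.026, adjusted p = 3.81e-30). The decarboxylase gene hem12 fell under camptothecin (161 to 104 CPM, -0.63 ± 0.034, adjusted p = 3.18e-25) and hydroxyurea (to 132 CPM, -0.29 ± 0.033, adjusted p = 1.54e-11). The gene hem3 fell with every agent, most under phleomycin (67.7 to 39.8 CPM, -0.77 ± 0.055, adjusted p = 5.02e-20).

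Copper is needed by Fio1, and of the 6 copper supply genes listed 2 rose and 2 fell under camptothecin, 2 and 4 under hydroxyurea, 2 and 3 under MMS, and none rose and 6 fell under phleomycin (median -0.68). Under phleomycin 42.2 % of all features rose and 40.7 % fell, and under the other agents 35.2 to 40.3 % rose and 35.9 to 40.9 % fell. The copper pump gene ccc2 rose under MMS (157 to 261 CPM, a log2 change of 0.73 ± 0.029, adjusted p = 2.05e-32). The uptake transporter gene ctr4 rose under camptothecin (146 to 297 CPM, 1.02 ± 0.029, adjusted p = 1.87e-39) and hydroxyurea (to 328 CPM, 1.16 ± 0.029, adjusted p = 8.99e-43). The gene of its partner in uptake, ctr5, also rose under camptothecin (185 to 285 CPM, 0.62 ± 0.028, adjusted p = 3.46e-29) and hydroxyurea (to 245 CPM, 0.41 ± 0.028, adjusted p = 2.65e-20) and fell under MMS (to 90.1 CPM, -1.04 ± 0.031, adjusted p = 5.51e-39). Both fell under phleomycin, ctr4 to 36.4 CPM (-2.01 ± 0.037, adjusted p = 8.86e-51) and ctr5 to 36.3 CPM (-2.35 ± 0.035, adjusted p = 8.64e-56).

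Likeness of pattern was measured as the root mean square difference of log2 group means, each centred over the 5 groups, among protein-coding genes with a mean of 10 CPM or more. The gene nearest to fio1 was fip1, at 0.228, and the nearest outside the 10 was caf5, a transporter gene, at 0.537 from fio1 and 0.372 from fip1. For shu1 the nearest were str3, at 1.88, and osr1, outside the 10, at 2.38. For str3 they were fio1 (1.33) and fip1 (1.39), so neither haem gene had a close match by this measure. The measure is not scaled for size of change, so genes that move far can have larger values. The shu1 means also rest on 4 to 9 reads per library in untreated and camptothecin cells. Nearest to frp1 were the thioredoxin reductase gene trr1 (0.392) and hem1 (0.414). Nearest to str1 were php4 (0.567) and, almost as near, SPAC1039.02 (0.592), which is outside the 10. The closest for sib1 were bpb1 (0.0698) and knk1 (0.0833), for pcl1 cnl2 (0.179) and mug162 (0.182), for fep1 the genes sul1 (0.0911) and lys4 (0.130), and for php4 SPBC12C2.04 (0.172) and ptl1 (0.258). Likeness over 5 groups is a description of these libraries.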

How the data were processed

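RNA-seq was made from 10 libraries of total RNA in 5 groups of 2. The authors deposited 1 table of raw read counts per feature with 1 column per library, unscaled. HISAT2 and StringTie are named in the submitters' processing notes; their settings, the genome build, the annotation and the use of strand in counting were not found in the labels. Library totals were 37301356 to 48598533 counts, a depth at which counting error is small for all members but shu1 and, under camptothecin, str3. Intervals cover counting error only, since they were taken from counts pooled over the 2 libraries of a group, without the spread between libraries. Reads carry no molecular identifiers.

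A quasi-likelihood model was fitted to the counts in edgeR 4.0.16 under R 4.3.3, as 1 model of 5 groups, with TMM factors (0.944 to 1.09) after filterByExpr with default settings, which left 5734 features. The fit was tested on simulated data. Each standard error is the size of the log2 change over the root of its F statistic. Alternatives were DESeq2 1.42.0, its size factors, library totals, quantile normalization with limma 3.58.1, no filter, only the groups compared, a replicate block, and each library left out. Replicate numbers did not pair libraries. Genes were named by a rule: all 10 members, from each list the 2 largest changes per agent past the threshold at 10 CPM or more, without overlap, and the 2 nearest patterns of each member. The next gene of a list is named in a few places to complete a count, chosen after its values were seen. Members and lists were chosen with earlier results of these data known. Of 78 list entries 76 were matched to the table; cfd1 was not, cia1 is an older name of another gene and was left out, and sdh4 was matched by an older name. RefSeq ASM294v3 gave symbols, neighbours, coding lengths and sequences, the region upstream of shu1 not being reported here (6540 of 6661 IDs matched by locus tag and 11 by synonym). By blastn 2.17.0+ no member had a second copy at 95 % identity over 50 % of its coding length.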

Additional observations from a re-analysis of the deposited data

How the results depend on the processing

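All 38 member calls against untreated cells kept their direction and their side of the threshold under the 17 alternatives. Those of shu1 under hydroxyurea, MMS and phleomycin are among them and are a description only, since these groups kept the gene for testing. The 2 results that had not passed changed sign: shu1 under camptothecin ranged from -0.39 to 0.60 with a library left out, and was -0.23 without the first untreated library, -0.39 without the first camptothecin library and -0.36 with quantile normalization, and fio1 under hydroxyurea ranged from -0.043 to 0.0098 with a library left out, and was 0.17 with library totals alone (adjusted p = 7.99e-06) and 0.027 with quantile normalization. Between agents, 7 values of 4 differences that were small (0.016 to 0.13 in size, log2) changed sign: pcl1, hydroxyurea over camptothecin, was 0.16 with library totals and 0.14 with quantile normalization, php4 in the same comparison 0.063 with library totals, fep1, phleomycin over camptothecin, 0.047 with library totals, and sib1, phleomycin over hydroxyurea, -0.084 with library totals, -0.080 with quantile normalization and from -0.00033 to 0.022 with a library left out. The cause was not tested.

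Counts of changed features and of changed members stayed within 1.5 times. With a library left out, changed features ranged from 3781 to 4083 under camptothecin, 4257 to 4537 under hydroxyurea, 4379 to 4622 under MMS and 4557 to 4766 under phleomycin. With library totals alone the median of all features moved by 0.184 under hydroxyurea against untreated cells and 0.193 against camptothecin, and the share rising went from 50.9 to 67.7 % and from 50.2 to 72.7 %; for phleomycin against hydroxyurea it went from 46.8 to 35.0 %. Replicate numbers did not pair libraries (correlations between groups of -0.053 to 0.037). A replicate block gave 3978, 4451, 4561 and 4707 changed features under camptothecin, hydroxyurea, MMS and phleomycin, and the same member counts against untreated cells. Depth limits shu1, with 4 to 9 reads in untreated and camptothecin libraries, and to a lesser degree str3, with 68 and 49 reads in the camptothecin libraries.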
